A study of Mus musculus with 163 samples.

Results

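The genotype ratio of a gene in outer hair cells (OHCs) was set against the ratio of the same gene in inner hair cells (IHCs) of the mouse cochlea at postnatal day 7, to describe which transcripts differed with loss of Rbm24 in one hair cell type and not in the other, or in opposite directions. For each gene the counts of all cells of a group were summed and scaled to CPM, counts per 1000000 of the group total, the log2 ratio of mutant over control was taken in each hair cell type, and the IHC ratio was subtracted from the OHC ratio. A positive difference therefore means that the mutant level stood higher, relative to its own control, in OHCs than in IHCs. Of 55291 genes in the table, 8546 reached 20 CPM in at least 1 of the 4 groups. Of these, 7202 reached 20 CPM in at least 1 group of each hair cell type, and their ratios could be compared. A further 703 reached that level in OHCs alone and 641 in IHCs alone.

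The groups held 43 control OHCs, 56 mutant OHCs, 38 control IHCs and 26 mutant IHCs, each a single hand-picked, tdTomato-positive cell sequenced full length with a Smart-seq kit. Controls were Atoh1P2A-Tdtomato/+, with 1 Atoh1 allele carrying the reporter. Mutants were Atoh1P2A-Cre/P2A-Tdtomato; Rbm24flox/flox, so that Cre was made in cells that express Atoh1 and both Atoh1 alleles were modified. Cre, the second modified Atoh1 allele and the loss of Rbm24 cannot be told apart. No label names the animal of a cell. Each group is therefore 1 sample, nothing was tested, and the limits used to sort genes are limits of size. The intervals given are 95% intervals that cover counting error of reads alone. They leave out the spread between cells and the spread between animals, so they are too narrow as ranges for a level or ratio.

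OHCs amplify sound by changing length with the motor protein prestin, and receive efferent cholinergic input. IHCs release glutamate from ribbon synapses onto the afferent neurons that carry sound to the brain. Rbm24 encodes an RNA-binding protein that regulates splicing and transcript stability in muscle and in hair cells. The series title concerns OHC survival through repression of Insm1, a zinc-finger repressor of neurons and of differentiating OHCs, and the hair bundle.

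Summed totals were 4.00e+08 counts in control OHCs, 7.20e+08 in mutant OHCs, 3.49e+08 in control IHCs and 3.65e+08 in mutant IHCs, with 5.47e+06 to 1.81e+07 counts per cell. Rbm24 stood at 315 CPM in control OHCs, 0.212 CPM in mutant OHCs, 431 CPM in control IHCs and 1.51 CPM in mutant IHCs, so the target gene was nearly lost in both types of mutant cell. The OHC markers Slc26a5 (prestin), Ikzf2 and Lbh lay at 107 CPM or more in control OHCs and under 5 CPM in control IHCs. The IHC markers Slc17a8, Tbx2 and Fgf8 lay at 186 CPM or more in control IHCs and under 7 CPM in control OHCs. Ocm, Strip2 and Chrna9, also OHC markers, stood at 4951, 1379 and 710 CPM in control OHCs. In control IHCs they stood at 34.2, 383 and 674 CPM. Otof, Slc7a14 and Dnajc5b, also IHC markers, stood at 2547, 115 and 143 CPM in control IHCs. In control OHCs they stood at 1151, 88.8 and 0.0476 CPM. In 1 control OHC Slc26a5, Ocm and Ikzf2 were all under 10 CPM, against its label. These genes were also all under 10 CPM in 21 of 56 mutant OHCs. The sex of the cells differed with genotype. Y-linked transcripts without Xist were found in 32 of 43 control OHCs, 16 of 56 mutant OHCs, 26 of 38 control IHCs and 7 of 26 mutant IHCs. A split of the cells at 40 CPM of the pseudogene Gm15772, known from earlier work on these data, put 25, 16, 23 and 7 cells in the low set. Ratios were therefore also taken within each of these 4 cell sets. Both splits divide the same cells, so the 4 sets share cells and are not independent.

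The promoters of 4 genes are shown because they stand for the 4 ways of differing in one hair cell type: Abhd12b was higher in mutant OHCs, Kcp lower in mutant OHCs, Dner higher in mutant IHCs and Dnm3 lower in mutant IHCs. Each window runs 5′ to 3′ on the strand of the gene, from 250 bases before its start to 50 after it, and is taken from RefSeq on GRCm38.p6. Capitals mark the E-box CAGNTG on either strand, the motif class bound by basic helix-loop-helix factors such as Atoh1.
Abhd12b, chr12:70153881-70154180, plus strand: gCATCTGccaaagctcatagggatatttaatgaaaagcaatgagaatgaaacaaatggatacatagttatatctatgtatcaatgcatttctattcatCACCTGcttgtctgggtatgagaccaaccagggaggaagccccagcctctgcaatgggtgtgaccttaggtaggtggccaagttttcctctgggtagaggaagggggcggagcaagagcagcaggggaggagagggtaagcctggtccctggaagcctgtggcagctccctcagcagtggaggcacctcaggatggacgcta
Kcp, chr6:29507903-29508202, minus strand: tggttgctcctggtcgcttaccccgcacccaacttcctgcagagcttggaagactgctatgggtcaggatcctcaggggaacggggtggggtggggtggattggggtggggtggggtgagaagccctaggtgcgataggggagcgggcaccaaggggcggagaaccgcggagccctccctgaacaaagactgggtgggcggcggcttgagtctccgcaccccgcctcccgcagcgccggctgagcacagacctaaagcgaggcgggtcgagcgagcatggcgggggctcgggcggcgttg
Dner, chr1:84696172-84696471, minus strand: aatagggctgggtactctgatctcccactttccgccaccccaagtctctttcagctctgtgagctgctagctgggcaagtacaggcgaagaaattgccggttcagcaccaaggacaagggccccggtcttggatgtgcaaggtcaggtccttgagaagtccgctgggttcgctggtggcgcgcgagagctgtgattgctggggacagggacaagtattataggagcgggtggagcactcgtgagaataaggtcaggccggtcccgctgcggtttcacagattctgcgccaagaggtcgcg
Dnm3, chr1:162477985-162478284, minus strand: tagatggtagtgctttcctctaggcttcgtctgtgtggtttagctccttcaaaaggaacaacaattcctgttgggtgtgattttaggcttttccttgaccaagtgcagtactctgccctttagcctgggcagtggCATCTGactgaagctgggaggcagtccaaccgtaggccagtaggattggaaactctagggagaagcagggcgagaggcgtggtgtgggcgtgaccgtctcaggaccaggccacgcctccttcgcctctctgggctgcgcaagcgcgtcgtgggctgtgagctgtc
The motif was found 2 times in the Abhd12b window, 1 time in the Dnm3 window and not in the windows of Kcp and Dner. It is held by 51.1% of 22632 promoters of the same length, so the matches are a description of these letters. A promoter was given for 62.2% of the comparable genes, too few to compare groups of genes.

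Most genes differed little from control in either hair cell type, and their ratios therefore differed little between the types. The difference had a median of -0.02 and quartiles of -0.40 and 0.35 on the log2 scale, and 86.3% of the 7202 genes lay within 1 of zero. The OHC ratio itself lay within 1 of zero for 83.5% of the genes and the IHC ratio for 85.8%. In OHCs 761 genes (10.6%) were higher in mutants by 2-fold or more and 427 (5.93%) lower by that much. In IHCs 681 genes (9.46%) were higher and 345 (4.79%) lower. Of the genes higher in mutants, 389 (5.4%) were past 2-fold in both types, which is 51.1% of the OHC genes and 57.1% of the IHC genes. Of those lower, 149 (2.07%) were past 2-fold in both, 34.9% of the OHC genes and 43.2% of the IHC genes. The difference itself was 1 or more for 436 genes (6.05%) and -1 or less for 549 (7.62%).

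Genes past 2-fold in one type were called one-type genes when the other type stayed within 1.41-fold, a log2 ratio under 0.5 in size. By this rule 172 genes (2.39%) were higher in mutant OHCs alone, 147 (2.04%) lower in mutant OHCs alone, 125 (1.74%) higher in mutant IHCs alone and 101 (1.4%) lower in mutant IHCs alone. Another 555 (7.71%) were past 2-fold in one type with a smaller ratio in the other, and 5545 (77%) were within 2-fold in both. Past 2-fold in opposite directions were 3 genes (0.0417%) higher in OHCs and lower in IHCs, and 16 (0.222%) lower in OHCs and higher in IHCs. These shares are the background for every list described later. At the edge of membership, Pde4a peaked at 20.0 CPM and was kept, while Sh2b2 peaked at just under it and was not.

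**Figure D1:**
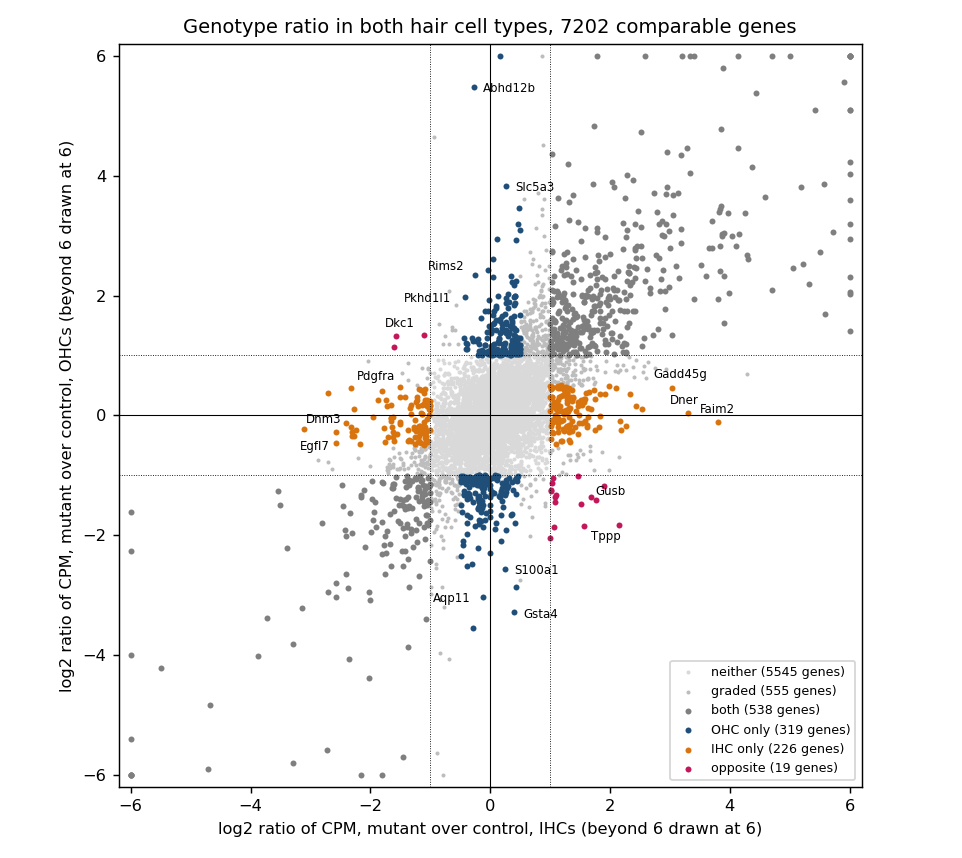
Each point is 1 of the 7202 comparable genes, with the log2 ratio of summed CPM (mutant over control) in IHCs on the horizontal axis and in OHCs on the vertical axis, and values beyond 6 drawn at 6. Dotted lines mark 2-fold. Blue points (past 2-fold in OHCs alone) stand above and below the centre, orange points (past 2-fold in IHCs alone) to its right and left, and the 19 red points are the genes with opposite ratios.

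Opposite ratios of 2-fold or more were rare, and the genes that had them were expressed below the usual level. The median over genes of the highest group level was 51.0 CPM for those higher in OHCs and 43.7 CPM for those lower in OHCs, against 79.2 CPM for all comparable genes. Dkc1 encodes dyskerin, which modifies ribosomal RNA and is part of telomerase. It stood at 20.3 CPM in control OHCs, 51.0 CPM in mutant OHCs, 33.9 CPM in control IHCs and 11.4 CPM in mutant IHCs, so the 2 types crossed over. Its log2 ratio was 1.33 (1.29 to 1.36) in OHCs and -1.57 (-1.62 to -1.52) in IHCs, a difference of 2.90. Dkc1 lies on the X chromosome (GRCm38, 75095854 to 75109777), and its ratios were 1.55 and -1.55 in OHCs and IHCs with Y-linked transcripts, and 0.72 and -1.24 in those with Xist. Thus the OHC ratio was under 2-fold among cells with Xist. The other two genes with this pattern were Csnk2a2, a catalytic subunit of casein kinase 2, and the kinesin gene Kif21b.

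Leaving out Rik gene models, the reverse pattern was led by Tppp, which encodes a protein that promotes tubulin polymerisation. The gene model 9530077C05Rik had a larger difference, at -3.98. Tppp stood at 45.5 CPM in control OHCs, 12.7 CPM in mutant OHCs, 13.1 CPM in control IHCs and 38.6 CPM in mutant IHCs. The control order of the types was thus turned around in mutants, with a difference of -3.40. Gusb, the lysosomal enzyme beta-glucuronidase, stood at 63.8, 22.9, 31.8 and 90.5 CPM in the same order, 2.78-fold lower in mutant OHCs and 2.84-fold higher in mutant IHCs (difference -2.98). The OHC ratio of Gusb was -0.78 in the cells with Y-linked transcripts and -1.94 in those with Xist.

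Slc35e2, of the SLC35 family of transporters, stood at 36.2, 14.4, 19.5 and 41.9 CPM (difference -2.43). It was the 1 gene of the 19 that kept its opposite ratios in all 11 alternatives that use the same limits. Ccdc74a stood at 115, 48.2, 73.8 and 150.2 CPM (difference -2.28), and was found in most cells of each group, with 40 of 43, 42 of 56, 36 of 38 and 26 of 26 cells at 10 CPM or more.

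Further genes lower in mutant OHCs and higher in mutant IHCs were Atg2a, which acts in autophagy, Srxn1, which reduces oxidised peroxiredoxins, Fbf1, Sugp2, Zfp113, Ttll4, Klhl26, Trmt10a, Tmem30b and 2 Rik gene models. Srxn1 stood at 36.7, 14.3, 11.5 and 36.7 CPM in control OHCs, mutant OHCs, control IHCs and mutant IHCs, so the mutant IHC level matched the control OHC level to the digits given. The difference kept its direction in all 4 cell sets for each of the 3 genes higher in OHCs and for 15 of the 16 lower in OHCs. The 4 sets share cells and are parts of the cells that sorted these genes, so they are not separate checks.

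The genes named as higher in mutant OHCs alone had higher levels in control IHCs than in control OHCs, for all 6 of them. The rule that named them favours this order. It takes large OHC ratios and needs 20 CPM in an IHC group with an IHC log2 ratio under 0.5 in size. Abhd12b (GRCm38 chromosome 12, 70154142 to 70183887, plus strand), an alpha/beta hydrolase family member, was nearly absent from control OHCs at 5.25 CPM (5.03 to 5.48). It stood at 236 CPM (234 to 237) in mutant OHCs, 262 CPM (261 to 264) in control IHCs and 217 CPM (216 to 219) in mutant IHCs. The mutant OHC level was thus close to both IHC levels. The log2 ratio was 5.49 in OHCs, a 44.8-fold difference, and -0.27 in IHCs. At 10 CPM or more it was found in 4 of 43 control OHCs, 1 of which held 56.8% of the control counts, and in 42 of 56 mutant OHCs. Its IHC ratio was -1.22 in cells with Y-linked transcripts against 0.63 in cells with Xist.

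Rims2 (chromosome 15, 39198261 to 39684372, plus strand), a scaffold of the presynaptic active zone, showed the same order of levels. It stood at 47.1 CPM in control OHCs, 239 CPM in mutant OHCs, 370.0 CPM in control IHCs and 309 CPM in mutant IHCs. The OHC log2 ratio was 2.34 (2.32 to 2.37) and the IHC ratio -0.26 (-0.27 to -0.25). Over cells the median was 19.1 CPM in control OHCs, with a range of 0 to 268 CPM, and 223 CPM in mutant OHCs, with a range of 0 to 614 CPM, so the 2 OHC groups overlapped. All 38 control IHCs and all 26 mutant IHCs were at 77.9 CPM or more.

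Pkhd1l1, which encodes a coat protein of the stereocilia, stood at 46.0, 181, 216 and 162 CPM in control OHCs, mutant OHCs, control IHCs and mutant IHCs. Its OHC ratio was 2.78 in cells with Y-linked transcripts against 1.09 in cells with Xist. Slc5a3, the sodium and myo-inositol cotransporter, stood at 4.01, 57.2, 29.9 and 36.0 CPM, and its reads may be shared with the overlapping Mrps6. Ugt8a, the enzyme that makes galactosylceramide, stood at 17.5, 86.9, 37.7 and 38.7 CPM, with both IHC groups below the mutant OHCs. Fam168a stood at 44.4, 221, 179 and 227 CPM. The differences for these 4 genes were 2.39, 3.56, 2.27 and 1.98.

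**Figure D2:**
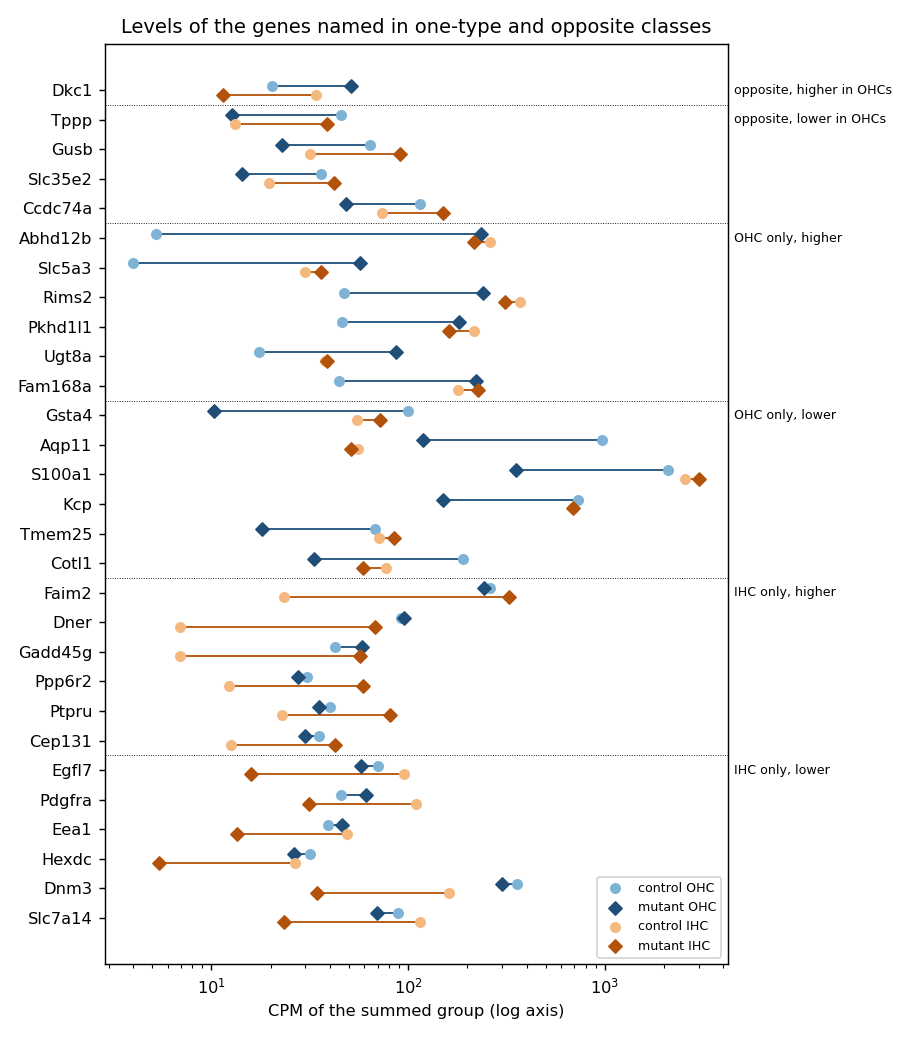
The 29 genes named in the opposite and one-type classes are shown with their summed CPM on a log axis, control as circles and mutant as diamonds, OHCs in blue and IHCs in orange, with a line joining the genotypes of each type. In the classes of 1 type the long lines belong to that type and the other type has short lines, as for Kcp, at 730 and 149.7 CPM in OHCs against 686 CPM in both IHC groups.

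Genes lower in mutant OHCs alone included several that both control types expressed highly. Kcp (GRCm38 chromosome 6, 29473162 to 29507952, minus strand), which encodes a secreted modulator of BMP signalling, stood at 729.7 CPM (727 to 732) in control OHCs and 149.7 CPM (149 to 151) in mutant OHCs. Control IHCs had 686 CPM (683 to 689) and mutant IHCs 686 CPM (683 to 688). The log2 ratio was -2.29 in OHCs and 0.00 in IHCs, and the difference ranged from -2.45 to -2.12 over the 11 alternatives. Every control and mutant IHC was at 335 CPM or more, while mutant OHCs ranged from 0.125 to 637 CPM with a median of 127 CPM.

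S100a1 (chromosome 3, 90511034 to 90514392, minus strand), a calcium-binding EF-hand protein, stood at 2092 CPM in control OHCs, 355 CPM in mutant OHCs, 2545 CPM in control IHCs and 3024 CPM in mutant IHCs. It was 5.89-fold lower in mutant OHCs and 1.19-fold higher in mutant IHCs, a difference of -2.81. All cells of all 4 groups held it at 10 CPM or more. S100a1 is also a supporting cell marker. The summed level of the other 11 markers of that list had medians over cells of 18.4 CPM in control OHCs, 3.96 CPM in mutant OHCs, 11.4 CPM in control IHCs and 12.8 CPM in mutant IHCs. Cells in which at least 3 of the markers reached 10 CPM numbered 5, 8, 12 and 2. Without those cells the difference of S100a1 was -2.87, and its range over the 11 alternatives was -3.39 to -2.08.

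Gsta4, a glutathione transferase that detoxifies products of lipid peroxidation, stood at 100.2, 10.3, 54.7 and 71.9 CPM in control OHCs, mutant OHCs, control IHCs and mutant IHCs. It was found at 10 CPM or more in 36 of 43 control OHCs and 8 of 56 mutant OHCs, a 9.76-fold lower level, and in 28 of 38 and 21 of 26 IHCs. Aqp11, an intracellular aquaporin on the OHC list, stood at 966, 118, 55.4 and 51.0 CPM, so the mutant OHC level remained above both IHC levels. Its IHC ratio of -0.12 over all cells was -1.97 among cells with Y-linked transcripts, where the difference was -0.98. Tmem25 stood at 68.2, 18.1, 70.9 and 85.2 CPM and Cotl1, an actin-binding protein, at 190.1, 33.4, 77.5 and 59.1 CPM.

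One-type genes that kept their class in all 11 alternatives were few, a count chosen after the data were seen. They were 2 of the 172 higher in OHCs, 13 of the 147 lower in OHCs, 8 of the 125 higher in IHCs and 5 of the 101 lower in IHCs, against 136 of the 389 higher in both types and 41 of the 149 lower in both. The 2 higher in OHCs were the pseudokinase gene Trib2, at 47.6, 125, 100.8 and 97.6 CPM, and Zfp68, at 51.9, 149, 68.8 and 78.7 CPM. The 13 lower in OHCs were Kcp, Tmem25, Ush1c, Ciapin1, Arnt, Gabarapl1, Slc1a5, Fam213a, Saraf, Tmem191c, Rfk, Ehd4 and G3bp1. Gabarapl1, an autophagosome protein, stood at 513 CPM in control OHCs and 166 CPM in mutant OHCs, against 169.6 and 162 CPM in IHCs. Ciapin1, which acts in cytosolic iron-sulfur cluster assembly, stood at 549.5 and 162 CPM against 224 and 202 CPM. Saraf, an inhibitor of store-operated calcium entry, stood at 425 and 175 CPM against 204 and 208 CPM, and Rfk, the riboflavin kinase, at 236 and 92.8 CPM against 128 and 113 CPM.

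Genes higher in mutant IHCs alone were led by genes that control OHCs already expressed. The class itself asks for this, as an OHC group must reach 20 CPM with an OHC log2 ratio under 0.5 in size. Faim2 (chromosome 15, 99497012 to 99528165, minus strand), an inhibitor of Fas-mediated cell death in neurons, stood at 262 CPM (261 to 264) in control OHCs and 243 CPM (242 to 244) in mutant OHCs. Control IHCs had 23.5 CPM (23.0 to 24.0) and mutant IHCs 327 CPM (325 to 329), which is 13.9-fold higher. It was at 10 CPM or more in 12 of 38 control IHCs and 25 of 26 mutant IHCs, and in 42 of 43 and 53 of 56 OHCs. The log2 ratio was -0.11 in OHCs and 3.80 in IHCs, and the IHC ratio was 3.67 in cells with Y-linked transcripts against 3.30 in cells with Xist.

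Dner (chromosome 1, 84369839 to 84696221, minus strand), a transmembrane protein with Delta-like EGF repeats, stood at 92.4, 95.3, 6.94 and 68.2 CPM in control OHCs, mutant OHCs, control IHCs and mutant IHCs. It was found at 10 CPM or more in 7 of 38 control IHCs and 16 of 26 mutant IHCs, with a median over cells of 0.137 and 37.3 CPM. Gadd45g, a growth arrest and stress response gene, stood at 42.3, 58.0, 6.94 and 56.8 CPM, and its IHC ratio was 0.80 in cells with Y-linked transcripts against 3.23 in cells with Xist. Ppp6r2, a regulatory subunit of protein phosphatase 6, stood at 30.8, 27.4, 12.3 and 59.0 CPM. Ptpru, a receptor tyrosine phosphatase, stood at 40.1, 35.1, 22.9 and 80.6 CPM, and Cep131, a protein of centriolar satellites, at 35.2, 29.8, 12.6 and 42.4 CPM. The differences for these 5 genes were -3.25, -2.58, -2.43, -2.01 and -1.99.

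Of the 8 genes that stayed higher in mutant IHCs alone in every one of the 11 alternatives, 3 are Faim2, Dner and Ppp6r2. The other five were Fnbp4, Slc35b3, Arhgap44, Ak3 and Clu. Clu, which encodes the secreted chaperone clusterin, had the highest level, at 1440.4 and 1715 CPM in OHCs and 608 and 1338 CPM in IHCs, control first.

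**Figure D3:**
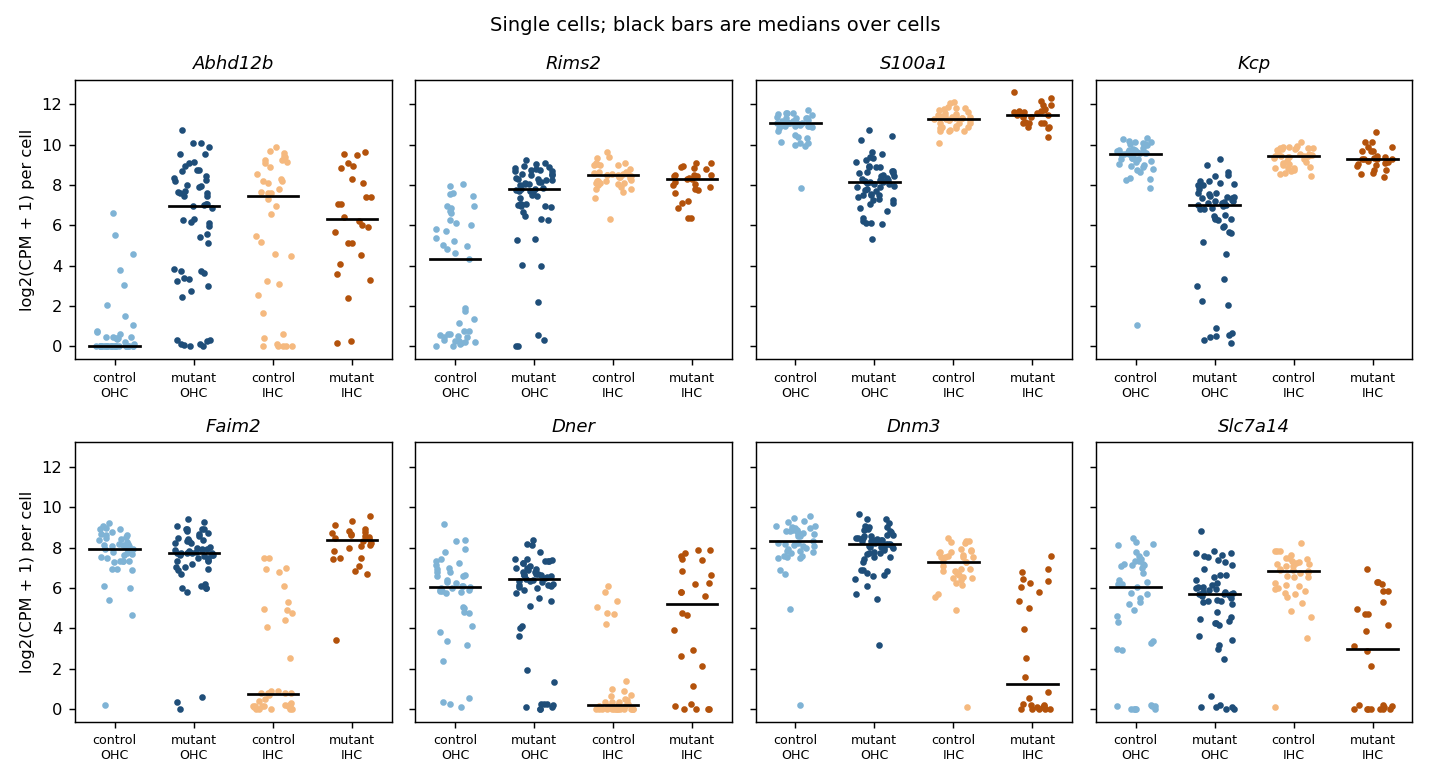
Single cells are plotted as log2(CPM + 1) in the 4 groups for 8 of the named genes, with black bars at the median over cells. For Kcp and S100a1 the mutant OHCs lie lower than the other groups, for Faim2 and Dner the control IHCs lie low, and for Dnm3 the mutant IHCs fall into cells near 0 and cells at up to 189 CPM, with 11 of 26 at 10 CPM or more.

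Genes lower in mutant IHCs alone included dynamin 3 and an IHC identity gene. Dnm3 (chromosome 1, 161982453 to 162478034, minus strand), a GTPase of endocytic membrane fission, stood at 357 CPM in control OHCs, 302 CPM in mutant OHCs, 162 CPM in control IHCs and 34.4 CPM in mutant IHCs. It was at 10 CPM or more in 37 of 38 control IHCs and 11 of 26 mutant IHCs, 1 of which held 24.1% of the mutant counts. The IHC log2 ratio was -2.24 (-2.27 to -2.21) and the OHC ratio -0.24 (-0.25 to -0.23). The IHC ratio lay between -2.07 and -1.89 in the 4 cell sets. Dnm3 overlaps the antisense gene Dnm3os, and without a stated strand setting their reads cannot be told apart.

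Slc7a14, a solute carrier on the IHC list, stood at 88.8, 69.5, 115 and 23.3 CPM in control OHCs, mutant OHCs, control IHCs and mutant IHCs, and at 10 CPM or more in 37 of 38 control and 12 of 26 mutant IHCs. Egfl7, a secreted protein best known from endothelial cells, stood at 70.5, 57.9, 94.9 and 16.0 CPM, while the endothelial markers Pecam1, Cdh5 and Kdr lay under 3 CPM in all 4 groups. Its reads may be shared with the overlapping Agpat2. Pdgfra, a receptor for platelet-derived growth factor, stood at 45.7, 60.9, 109 and 31.4 CPM, while the mesenchyme marker Col1a1 lay at 3.09 to 7.92 CPM and Col1a2 and Col3a1 at or under 0.00822 CPM. The OHC ratio of Pdgfra was -0.76 in cells with Y-linked transcripts against 1.64 in cells with Xist.

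Eea1, which tethers early endosomes, stood at 39.0, 46.2, 49.0 and 13.5 CPM, and Hexdc, a hexosaminidase gene that overlaps Ogfod3, at 31.9, 26.4, 26.6 and 5.40 CPM. Both were lowest in mutant IHCs. The 5 genes that stayed lower in mutant IHCs alone in all 11 alternatives were Dnm3, the m6A reader gene Ythdf1, the steroid reductase gene Srd5a1, the histone chaperone gene Supt16 and Cand1, a regulator of cullin ubiquitin ligases. Srd5a1 stood at 478 and 414 CPM in OHCs and at 393 and 115 CPM in IHCs, control first.

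Among genes at 20 CPM or more in OHCs alone, 177 of 703 (25.2%) were higher and 169 (24%) lower in mutant OHCs by 2-fold or more. The leading genes higher in mutant OHCs were Coro2a, an actin-binding coronin, the neuronal adhesion gene Cntn1, and Adarb2, an RNA-binding member of the adenosine deaminase family. Coro2a stood at 1.86 and 83.6 CPM in OHCs, and at 2 counts and 14.1 CPM in IHCs. A single cell held 81.7% of its control OHC counts. Cntn1 stood at 1.31 and 46.1 CPM in OHCs and 0.241 and 1.97 CPM in IHCs, and Adarb2 at 2.43 and 58.6 CPM and 6.96 and 11.4 CPM. The order of the 2 types by ratio turned with the setting for Coro2a and Cntn1.

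The leading genes lower in mutant OHCs were Me3, a mitochondrial malic enzyme, Slc45a3 and the ubiquitin ligase gene Trim16. Me3 stood at 37.7 and 0.00555 CPM in OHCs and at 9.69 and 0.493 CPM in IHCs. Slc45a3 was found at 52.7 CPM in control OHCs and 0.0583 CPM in mutant OHCs, in 29 of 43 and 0 of 56 cells at 10 CPM or more, a count that allows a share of up to 5.36%. In IHCs it lay at 0.212 and 0.0219 CPM. Trim16 stood at 75.7 and 0.668 CPM in OHCs, 1 cell holding 99.2% of the mutant counts, and at 10.0 CPM and 0 counts in IHCs. All 3 were thus lower in mutants of both types, and they stand here because their IHC level was under 20 CPM.

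Among genes at 20 CPM or more in IHCs alone, 211 of 641 (32.9%) were higher and 82 (12.8%) lower in mutant IHCs. The leading genes higher in mutant IHCs were Cfap161, a protein of motile cilia, Lrrc26, an auxiliary subunit of BK potassium channels, and Zbbx. Cfap161 had 1 count in all control IHCs and 56.8 CPM in mutant IHCs, and stood at 0.450 and 15.8 CPM in OHCs. Lrrc26 had 0 counts in both control groups, 40.4 CPM in mutant IHCs and 1.76 CPM in mutant OHCs, where 1 cell held 99.8% of the counts. Against the floor of 3 counts over the group, Lrrc26 was 4689.5-fold higher in mutant IHCs, a size set by the floor. Zbbx stood at 0.0373 and 39.9 CPM in IHCs and 0.208 and 13.1 CPM in OHCs.

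The leading genes lower in mutant IHCs were Ang4, Dnajc5b and Cdon. Ang4, of the angiogenin family of ribonucleases, stood at 49.7 CPM in control IHCs, found in 24 of 38 cells. It had 0 counts in mutant IHCs, 6038-fold lower against the floor of 3 counts. Dnajc5b, a cysteine string protein gene on the IHC list, stood at 143 and 0.938 CPM in IHCs and at 0.0476 and 1.87 CPM in OHCs, where 2 of 56 mutant cells reached 10 CPM. Its OHC log2 ratio was 5.29 over all cells, -1.99 in cells with Y-linked transcripts, -2.20 in cells low in Gm15772 and -0.53 without cells holding supporting cell markers. Cdon, a cell surface receptor of hedgehog signalling, stood at 33.8 and 1.20 CPM in IHCs and 4.89 and 2.66 CPM in OHCs.

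Insm1, named in the series title, did not reach the level of membership, at 3.81 CPM in control OHCs, 18.7 CPM in mutant OHCs, 0 counts in control IHCs and 4 counts in mutant IHCs. No IHC ratio of use can be made from 4 counts.

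Lists of genes with shared roles were then read in both types, each against the shares of all comparable genes given earlier. The OHC list (electromotility and identity) had 10 comparable members, of which 0 were higher, 5 lower in OHCs and 4 lower in IHCs by 2-fold, with a median log2 ratio of -1.80 in OHCs and -0.95 in IHCs. Ocm, which encodes the calcium buffer oncomodulin, stood at 4951 and 18.6 CPM in OHCs and 34.2 and 0.0219 CPM in IHCs. Car7, a carbonic anhydrase, stood at 609.6 and 12.7 CPM in OHCs and 590.0 and 88.7 CPM in IHCs, so it was lower in both types and more so in OHCs (difference -2.85). Of the 18 genes of the list 7 reached 20 CPM in OHCs alone, prestin among them at 376 and 27.5 CPM. Of these 7, 3 were higher past 2-fold in mutant OHCs. They were Neurod6, at 0.518 and 70.5 CPM with a log2 ratio of 7.09, Bcl11b with 1.46 and Cacng5 with 1.13.

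The IHC list had 7 comparable members, with 6 lower by 2-fold in OHCs and 2 in IHCs, and medians of -1.60 and -0.84. The OHC ratio was the lower one in 6 of these 7, with a difference of -0.01 for Calb2. The median difference was -0.97, against -0.02 for all comparable genes. Atp2a3, which pumps calcium into the endoplasmic reticulum, stood at 103 and 2.08 CPM in OHCs and at 1249 and 676 CPM in IHCs. Cabp2, a calcium sensor of IHC calcium channels, stood at 145 and 9.24 CPM in OHCs and 1937 and 1079 CPM in IHCs. Shtn1 stood at 25.4 and 4.54 CPM in OHCs and 262 and 214 CPM in IHCs. The exception was Slc7a14, described with the genes lower in mutant IHCs. Another 5 members reached 20 CPM in IHCs alone, and 4 of them had the larger ratio in OHCs, at OHC levels of at most 2.15 CPM. Their log2 ratios in OHCs and IHCs were 1.98 and -0.27 for Tbx2, 2.75 and -0.98 for Fgf8, 5.29 and -7.25 for Dnajc5b and 3.12 and -0.46 for Brip1.

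The hair cell transcription factor list had 17 comparable members, with 5 higher and 3 lower by 2-fold in OHCs, against 1 higher and 2 lower in IHCs. The list also holds Jag2, which is not a transcription factor and is among the 5. Jag2 and Hes6 are counted again in the Notch and Wnt list. Zfp423 stood at 129 and 0.447 CPM in OHCs and at 22.1 and 6.34 CPM in IHCs, lower in both with a difference of -6.37. Atoh1, the basic helix-loop-helix factor that specifies hair cells, stood at 28.4 and 98.1 CPM in OHCs and 83.9 and 138 CPM in IHCs, though its alleles differ by design between the genotypes. Jag2, a Notch ligand of hair cells, stood at 48.0 and 169 CPM and at 111 and 210.3 CPM. The differences of Atoh1 and Jag2, at 1.07 and 0.89, went down to 0.41 and 0.02 in the alternatives.

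The Notch and Wnt list had 14 comparable members, with 9 higher by 2-fold in OHCs and 6 in IHCs. Its median was 1.19 in OHCs and 0.74 in IHCs, and the list difference of 0.57 was -0.45 among cells with Xist. The Notch target Heyl was the 1 member lower in OHCs, at 46.8 and 6.96 CPM, while in IHCs it stood at 86.9 and 123 CPM (difference -3.25). The ligand Dll4 stood at 19.4 and 33.6 CPM in OHCs and 4.36 and 29.3 CPM in IHCs (difference -1.96). The Frizzled receptor Fzd6 was one of the genes higher in OHCs alone, at 31.9 and 74.4 CPM against 67.2 and 73.5 CPM.

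The neuroendocrine and dense core granule list had 10 comparable members, and 6 were higher in OHCs and 5 in IHCs with none lower. Its medians were close, at 1.06 and 1.21, and the members differed in which type they were higher in. Cadps2, a priming factor of dense core vesicles, was higher in mutant IHCs alone, at 28.8 and 32.0 CPM in OHCs and 6.32 and 34.0 CPM in IHCs. Syt4, a synaptotagmin of such vesicles, stood at 7.18 and 29.9 CPM in OHCs and 0.0115 and 20.4 CPM in IHCs. Sstr2, a somatostatin receptor, was higher in both, at 1.22 and 67.8 CPM and at 1.98 and 29.4 CPM.

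The ribbon synapse and exocytosis list had 22 comparable members, with 7 higher and 2 lower in OHCs and 3 higher and 0 lower in IHCs. Beside Rims2, the calcium sensor Syt2 was higher in OHCs alone, at 3.78 and 29.0 CPM against 53.9 and 58.3 CPM in IHCs. The otoferlin gene Otof, the release sensor of IHCs, was lower in OHCs at 1151 and 389.9 CPM and within 2-fold in IHCs at 2547 and 1696 CPM. Otof was picked after its values were seen.

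Ion channels and calcium handling differed by gene more than by list. Of 8 calcium and sodium channel genes 2 were higher in OHCs and 3 in IHCs, with medians of 0.91 and 0.05. The sodium channel subunit gene Scn3b stood at 15.0 and 28.6 CPM in OHCs and 82.3 and 47.7 CPM in IHCs (difference 1.72). The calcium channel subunit gene Cacna2d3 was higher in both, at 10.3 and 58.3 CPM and 13.3 and 30.7 CPM. Of 12 potassium channel genes 3 were higher and 4 lower in OHCs, and 2 higher and 3 lower in IHCs. Kcna10 was lower in OHCs alone at 761 and 279 CPM against 986 and 805 CPM. Of 23 calcium buffers and pumps 3 were higher and 7 lower in OHCs, and 0 higher and 3 lower in IHCs, with Atp2a3, Cabp2 and S100a1 having the largest differences.

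The efferent synapse and purinergic receptor list had 7 comparable members, and in all 7 the OHC ratio was below the IHC ratio. The median difference was -0.89, against -0.02 for all comparable genes. The acetylcholine receptor subunit gene Chrna1 was lower in OHCs alone, at 477 and 121 CPM against 694 and 528 CPM in IHCs. The ATP-gated channel gene P2rx4 was lower in OHCs alone at 53.0 and 22.9 CPM against 29.2 and 27.0 CPM. Chrng was higher in both types, at 2.49 and 36.5 CPM and at 6.42 and 304 CPM, but its difference turned positive in 5 alternatives. Chrna9 and Chrna10, the efferent receptor of hair cells, were within 2-fold in both types.

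The hair bundle list (actin and scaffold) had 46 comparable members, with 5 higher and 5 lower in OHCs, 4 higher and 4 lower in IHCs, and a median difference of -0.11. Whrn, which encodes the tip scaffold whirlin, stood at 71.9 and 181 CPM in OHCs and 96.0 and 57.2 CPM in IHCs (difference 2.08). Myo3a, a motor of stereocilia tips, stood at 74.0 and 419.5 CPM in OHCs and 187 and 329 CPM in IHCs (difference 1.69). Lcp1, the actin bundler plastin 2, stood at 34.6 and 23.1 CPM in controls and had 0 counts in both mutant groups. Among 11 genes of the mechanotransduction complex, Ush1c, which encodes the scaffold harmonin, was lower in OHCs alone at 230.2 and 94.4 CPM against 139.5 and 147 CPM, in all 11 alternatives. The channel gene Tmc1 stood at 581 and 313 CPM in OHCs and 404 and 518 CPM in IHCs (difference -1.25). Piezo2 was higher in both, at 19.8 and 114 CPM and at 1.34 and 50.2 CPM.

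The comparable members of the motile cilium list had close medians in the 2 types. Of 45 comparable axoneme genes 36 were higher in OHCs and 34 in IHCs with 0 lower, the medians were 1.93 and 1.82, and the median difference was 0.09. Against this, Nek5, Fam92b and Ttc25 had larger OHC ratios. For Nek5 1 cell held 100% of the control IHC counts, and its difference of 6.45 was 0.50 without the highest cell of each group, 0.29 in cells with Xist and 0.10 with the median over cells. Ttc25, a docking factor of outer dynein arms, stood at 2.40 and 29.4 CPM in OHCs and 14.9 and 22.1 CPM in IHCs. The difference was 1 or more for 9 of the 45 and -1 or less for 3. Another 10 members reached 20 CPM in IHCs alone, with differences from -4.10 for Tekt4 to 5.44 for Cfap46. Dnah8, the 1 member at that level in OHCs alone, stood at 43.9 and 14.9 CPM in OHCs and 1.30 and 12.6 CPM in IHCs. Of 35 intraflagellar transport and ciliogenesis genes 9 were higher in OHCs and 8 in IHCs. The Bardet-Biedl gene Arl6 was higher in OHCs alone, at 162 and 333 CPM against 474 and 474 CPM.

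**Figure D4:**
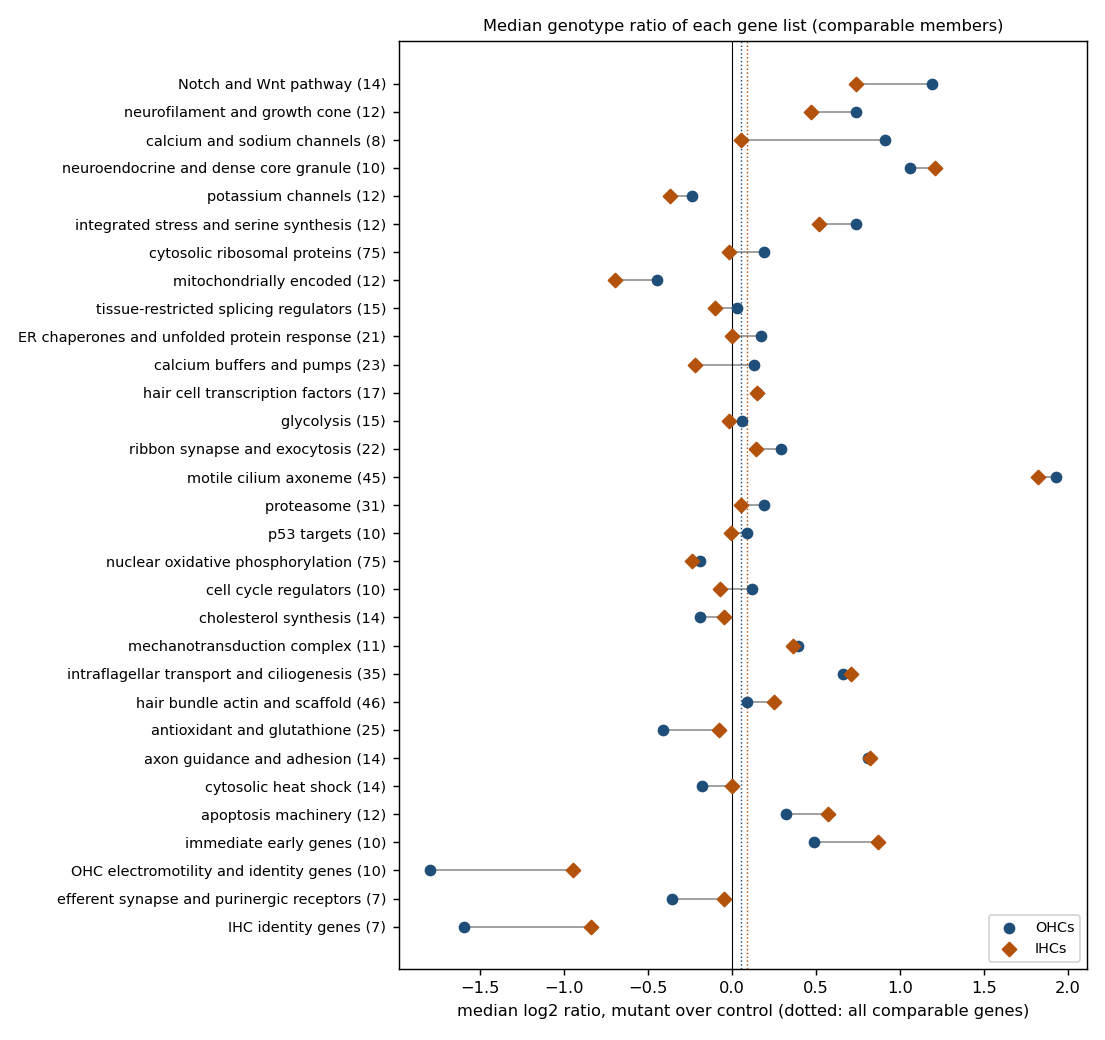
For each gene list with at least 5 comparable members (number in brackets), the median log2 ratio of mutant over control is shown in OHCs (blue circles) and in IHCs (orange diamonds), with dotted lines at the medians of all 7202 genes, 0.05 and 0.09. The OHC and IHC lists lie far to the left and more so in OHCs, the axoneme list far to the right with both types close together.

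Axon guidance genes numbered 14, with 5 higher in each type, and neurofilament and growth cone genes 12, with 5 higher in OHCs and 3 higher and 1 lower in IHCs. The teneurin gene Tenm4 was higher in IHCs alone, at 99.1 and 126 CPM in OHCs and 17.7 and 66.7 CPM in IHCs. The tubulin gene Tubb2a was lower in IHCs alone, at 108 and 116 CPM against 32.4 and 6.72 CPM. Sema3c stood at 0.143 and 46.2 CPM in OHCs and 11.7 and 21.2 CPM in IHCs, and Sema3a at 10.6 and 27.1 CPM and at 3.77 and 30.8 CPM, so these 2 secreted semaphorins leaned to different types.

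Of 12 apoptosis genes 0 were past 2-fold in OHCs and 2 were higher in IHCs, with medians of 0.32 and 0.57. Of 12 integrated stress and serine synthesis genes 5 were higher in OHCs and 2 in IHCs. Psat1, of serine synthesis, stood at 76.9 and 985 CPM in OHCs and 373 and 969 CPM in IHCs, with a difference of 2.30. That difference was 0.69 in cells with Xist, 0.93 in cells high in Gm15772, 5.89 in cells low in it and 8.20 with the median over cells. Asns, the asparagine synthetase, was higher in OHCs alone, at 76.7 and 156 CPM against 122 and 107 CPM, and kept that class in 3 of the 11 alternatives. Of 10 p53 targets 1 was higher and 1 lower in OHCs, and 2 were lower in IHCs, with Rrm2b lower in IHCs alone at 27.3 and 26.3 CPM against 28.4 and 8.97 CPM. Of 10 immediate early genes 2 were higher in OHCs and 4 in IHCs. Egr1 stood at 82.1 and 108 CPM in OHCs and 101 and 317 CPM in IHCs.

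Antioxidant and glutathione genes numbered 25, with 4 lower in OHCs and 1 higher in IHCs, and medians of -0.41 and -0.08. Beside Gsta4 and Srxn1, the peroxiredoxin gene Prdx5 stood at 651 and 326 CPM in OHCs and 391 and 369.6 CPM in IHCs. The cell cycle list of 10 genes had 2 large differences in summed counts. The inhibitor gene Cdkn1c, higher in both types, stood at 5.44 and 102 CPM in OHCs and 0.671 and 391 CPM in IHCs (-4.95). The cyclin gene Ccnd1, lower in both types, stood at 35.6 and 11.7 CPM in OHCs and 45.6 and 0.0795 CPM in IHCs (7.55). With the median over cells the differences were -2.47 for Cdkn1c and 0.51 for Ccnd1. Of 15 tissue-restricted splicing regulators 4 were higher and 1 lower in OHCs, and 2 higher and 1 lower in IHCs. Raver2 was higher in OHCs alone, at 161 and 360.0 CPM against 284 and 285 CPM.

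No member of the 75 cytosolic ribosomal protein genes was past 2-fold in either type, and 63 of 75 had the larger ratio in OHCs, with a median difference of 0.24. All 12 mitochondrially encoded genes had the larger ratio in OHCs, also with a median of 0.24. Over all comparable genes the difference had a median of -0.02 and quartiles of -0.40 and 0.35, so both list medians lay within the quartiles. The mitochondrial share of counts over cells had medians of 6.04% and 4.36% in control and mutant OHCs and 7.52% and 4.77% in IHCs. The lower mutant level was not seen alike in the cell sets. In cells with Y-linked transcripts the OHC and IHC ratios were 0.19 and -0.19 for mt-Nd4, 0.27 and 0.04 for mt-Nd2, and 0.26 and 0.16 for mt-Nd3. In cells with Xist they were -0.35 and -0.94, -0.71 and -1.35, and -0.65 and -1.28. The 75 nuclear genes of oxidative phosphorylation had medians of -0.19 and -0.24. ER chaperones (21 genes), heat shock genes (14), glycolysis (15), cholesterol synthesis (14) and proteasome (31) had median differences between -0.31 and 0.17.

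**Figure D5:**
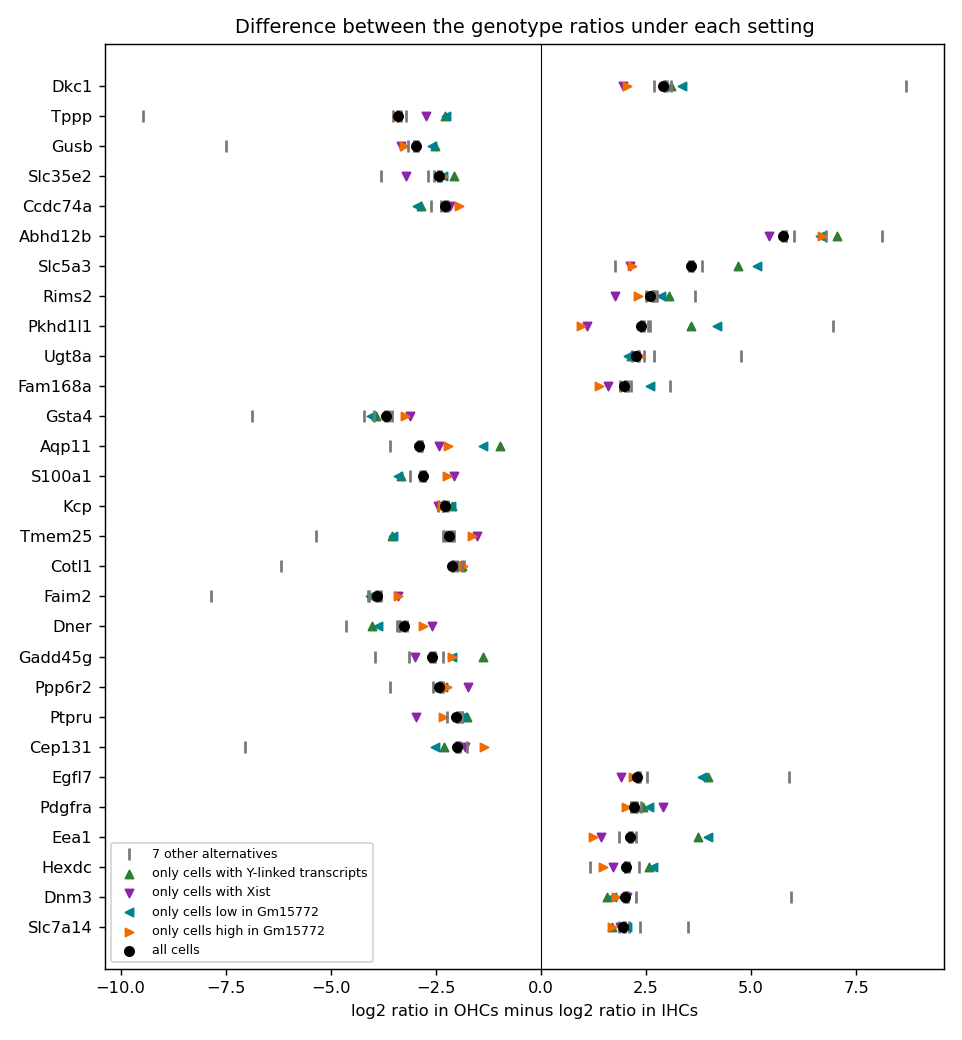
For the 29 named one-type and opposite genes, the difference between the log2 ratios in OHCs and IHCs is shown over all cells (black circles), within the 4 cell sets (coloured triangles) and under 7 other alternatives (grey ticks). All 29 genes, which were chosen for large differences, keep their side of zero, and the single largest shifts are grey ticks such as 8.69 for Dkc1.

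For each of the 29 named genes the difference had the same sign in all 11 alternatives, and for 27 it was at least 1 in size in all of them. The exceptions were Pkhd1l1, which went down to 0.96, and Aqp11, which went to -0.98. The class held less often than the sign, as 7 of the 29 kept it in all 11. These genes were chosen for large differences and for keeping their class without the highest cell, which is among the alternatives. TMM factors and the total without mitochondrial genes shift all differences by nearly the same small amount. Agreement in sign was thus largely set by the choice of genes.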

How the data were processed

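The deposited values were raw read counts per gene and cell. The tools named in the submitters' processing notes are featureCounts 2.0.1, SAMtools and HISAT2 2.2.1, on mm10; strand setting, annotation release and the handling of shared reads are not given in the sources used here. Of 55291 identifiers 55034 (99.5%) matched GENCODE on GRCm38, the build also called mm10. Counts were summed per group, divided by the group total and given per 1000000. A log2 ratio has an exact conditional binomial 95% interval and a level an exact Poisson interval. Where a sum was 0, a bound was taken against 3 counts. A count of 0 cells allows 6.98%, 5.36%, 7.89% and 11.5% in control OHCs, mutant OHCs, control IHCs and mutant IHCs. Reads carry no molecular identifiers.

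Named genes were the largest differences per class, up to 6, among protein-coding genes at 10 CPM in at least 50% of the cells of a group of each type that kept their class without the highest cell, up to 3 per direction among genes of one type, and up to 3 members per list. Other genes named were picked after their values were seen. Values of some genes are not reported here. The members and lists were chosen with earlier results of these data known. Sorting was tried on simulated counts with no spread between cells and with changes well past the limits. That trial shows that the rule was applied as written and cannot show how often real genes are sorted wrongly. Python 3.11.15, pandas 2.3.3, SciPy 1.17.1 and edgeR 4.0.16 (scaling factors only) were used.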

Additional observations from a re-analysis of the deposited data

Results flagged for a closer look

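Of the genes named by the rule, 5 had ratios past 2-fold in opposite directions in the 2 hair cell types. The difference of the log2 ratios, OHCs minus IHCs, was 2.90 for Dkc1, -3.40 for Tppp, -2.98 for Gusb, -2.43 for Slc35e2 and -2.28 for Ccdc74a. With 1 sample per group none of these differences was tested. In cells with Xist the OHC ratio of Dkc1 was 0.72, and in cells with Y-linked transcripts the IHC ratio of Tppp was 0.93 and the OHC ratio of Gusb was -0.78, so each of these was under 2-fold on one side there. The IHC ratio of Ccdc74a was 0.92 in cells with Y-linked transcripts, 0.95 in cells with Xist and 0.75 in cells high in Gm15772, and its class was kept in 6 of 11 alternatives.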

How the results depend on the processing

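No paired analysis was possible because the numbers in the labels name cells and no result comes from a test. Counts of genes per class moved widely, while the sign of the differences of named genes, which were chosen for size, did so seldom. Of 94 named genes with a difference of at least 1 in size, 94 kept the direction with TMM factors and 85 with the median over cells, the setting that turned most. TMM factors moved the median IHC ratio from 0.09 to -0.01, and split the differences of at least 1 in size into 493 positive and 473 negative, against 436 and 549.

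With the median of log2(CPM + 1) over cells the counts were 92 and 118 for opposite genes (higher, then lower, in OHCs), 263 and 333 for OHCs alone (higher, then lower), 231 and 276 for IHCs alone and 610 for lower in both. Among cells with Y-linked transcripts they were 29 and 32 for opposite genes, 218 and 279 for IHCs alone and 265 for lower in both. Among cells with Xist they were 29 and 41, 262 and 230 for OHCs alone, and 343 and 175 for IHCs alone. Among cells low in Gm15772 they were 33 and 36, 225 and 279 for IHCs alone, 599 for higher in both and 275 for lower in both, and among cells high in it 10 and 25, with 293 and 166 for IHCs alone. Without cells holding at least 3 supporting cell markers 7 opposite genes were higher in OHCs, and with TMM factors 10 were lower in OHCs. The sets chosen by Y-linked transcripts, Xist, Gm15772 or supporting cell markers hold fewer cells than the main result.

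A limit of 10 CPM gave 13 and 32 opposite genes, 226 lower in OHCs alone, and 214 and 173 for IHCs alone. A limit of 50 CPM gave 0 and 4, 97 and 52, 37 and 26, then 202 and 82 for both types. With no limit there were 1120 and 827, 784 and 718, 732 and 791, then 2150 and 1855. Limits of 1.5 and 0.5 on the log2 ratio gave 0 and 2, 51 and 41, 32 and 34, then 205 and 55, and limits of 1 and 0.25 gave 84 and 83 for OHCs alone and 70 and 50 for IHCs alone. The counts follow from the limits themselves.

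The difference turned sign for 12 named genes and 4 lists, and the cause was not tested. With the median over cells it was 4.20 for Coro2a, -5.59 for Trim16, -6.75 for Ocm, 1.37 for Syt4, 0.65 for Piezo2, 0.07 for Sema3a, -4.98 for Gap43, 3.63 for Cryab and 0.58 for Rbm24, and the list medians were 0.06 for immediate early genes and -0.10 for neuron markers. Among cells low in Gm15772 it was 0.48 for Coro2a, 0.85 for Cryab, 0.11 for Egr1 and 1.80 for Chrng, with -0.04 for potassium channels and 0.25 for immediate early genes. Among cells high in Gm15772 it was -2.03 for Cntn1 and -2.29 for Trim16, with -0.13 for the Notch and Wnt list. Among cells with Xist it was -2.64 for Cntn1 and -1.66 for Trim16, with -0.45 for the Notch and Wnt list. Among cells with Y-linked transcripts it was 2.82 for Chrng, with 0.20 for immediate early genes. Without the highest cell of each group it was -4.14 for Trim16 and 5.33 for Chrng. Chrng also turned without cells holding supporting cell markers (3.60) and without the control cell against its label (6.66).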
